A study of Mus musculus with 12 samples.

Results

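The genes described here encode the core of MHC class I antigen presentation: the heavy chains *H2-K1*, *H2-D1*, *H2-T23*, *H2-T3* and *H2-Q1*, the shared light chain *B2m*, the peptide transporter subunits *Tap1* and *Tap2*, the loading factor *Tapbp* and the class I transactivator *Nlrc5*. They were chosen by name, each has a single row in the count table, and the 10 genes stand among 34245 genes in all. All 10 had enough counts to be tested in each of the 5 comparisons. The RNA came from sorted small intestinal cells of male C57BL/6 mice, all of which carried the Lgr5-EGFP-IRES-CreERT2 knock-in allele, and the young animals averaged 33 weeks of age, the aged ones more than 2 years. Intestinal stem cells (ISC) were the GFP-high cells of crypt suspensions, where EGFP is driven by the *Lgr5* promoter. Adult enterocytes (AE) were villus cells with high Epcam staining and no CD45 or CD31 staining, so that the gate also admits goblet and enteroendocrine cells. No animal was treated, and each of the 4 groups (young ISC, aged ISC, young AE and aged AE) has 3 libraries. The comparisons ask how class I genes differ between stem and villus cells and whether they change with age.

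Class I heavy chains pair with beta-2-microglobulin and carry peptides from the cytosol to the cell surface, where CD8 T cells and natural killer cells read them. Proteasomes make the peptides, the TAP1-TAP2 transporter pumps them into the endoplasmic reticulum, and tapasin, the product of *Tapbp*, holds the empty molecule at the transporter until it is loaded. Interferons raise most of these genes, and NLRC5 acts at the promoters of class I genes as CIITA does at those of class II. In the mouse gut, *H2-T3* encodes the thymus leukemia antigen, a ligand of CD8 alpha homodimers on intraepithelial lymphocytes, and *H2-T23* encodes Qa-1, which presents leader peptides of other class I chains.

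Library totals ran from 11893817 to 26796461 counts in ISC and from 12728661 to 15473227 in AE, except for the young AE library Y3, which held 110794420. Column names carry a code (Y1, Y2 and Y3 for young, O1, O3 and O5 for aged) that appears once in each cell type, and 8 of 12 sample titles pair a code with the words for another group. Columns were therefore assigned by their own names. The cell type in those names was matched by markers: 9 stem cell genes summed to between 5921 and 8369 CPM (counts scaled to a common library size by TMM) in ISC and to between 96.9 and 643 in AE, while 10 enterocyte genes summed to between 1360.4 and 8280 in ISC and to between 61669 and 97098 in AE. The 4 goblet genes with a row summed to 19231 to 35981 CPM in AE. Most of this was *Fcgbp*, which averaged 23043 CPM in young and 23601 in aged AE. *Spink4* averaged 158 CPM in young and 80.7 in aged AE, against 92.5 and 155 in ISC. The age in a column name was not checked against any gene. The study's methods give the ages of 3 animals for each cohort, but no label ties a library or a code to an animal, and p-values are over the spread between the 3 libraries of a group.

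Levels of different genes were compared per kilobase of merged exons. In young ISC the order began with *B2m* at 595 ± 104 CPM per kb (mean ± SD, n = 3), followed by *H2-K1* at 189 ± 29.8 and *H2-D1* at 128 ± 22.8. The loading factor *Tapbp* came next at 39.2 ± 7.03, then *H2-T3* at 27.9 ± 2.92 and *H2-T23* at 21 ± 6.35. *Tap1* at 11.5 ± 4.97, *Tap2* at 9.50 ± 2.01, *H2-Q1* at 4.39 ± 2.43 and *Nlrc5* at 0.723 ± 0.678 CPM per kb closed the order. The ranges over libraries overlapped between *H2-T3* and *H2-T23*, between *H2-T23* and *Tap1* and between *Tap1* and *Tap2*, and between no other neighbours. *H2-T3* lay above *Tap1* and *Tap2* in range, and *H2-T23* above *Tap2*.

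In young AE the order again began with *B2m* at 2489 ± 381, *H2-K1* at 806 ± 133 and *H2-D1* at 512 ± 116 CPM per kb. *H2-T23* at 144 ± 42.3, *H2-T3* at 138 ± 10.6 and *Tapbp* at 131 ± 8.51 overlapped and could not be ordered. *H2-Q1*, ninth of 10 in ISC, was seventh in AE at 77.7 ± 4.70, above *Tap2* at 46.3 ± 13.6 and *Tap1* at 34.2 ± 15.1. The transactivator *Nlrc5* was the lowest of the members in all 4 groups, at 1.11 ± 1.05 CPM per kb in young AE and 1.29 ± 0.854 in the aged libraries. The aged groups gave the same 3 leading genes, with 503 ± 109 CPM per kb for *B2m* in ISC and 3082 ± 533 in AE, although the ranges of *H2-K1* and *H2-D1* overlapped in aged ISC. Within each library *H2-K1* was above *H2-D1*, by 1.31- to 1.55-fold per kb in ISC and 1.49- to 1.78-fold in AE. *Tap1* was 0.770 to 1.48 times *Tap2* per kb in ISC and 0.523 to 0.822 times in AE, and the AE ratio was the lower one in 6 of 6 codes, a description with no test.

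**Figure D1:**
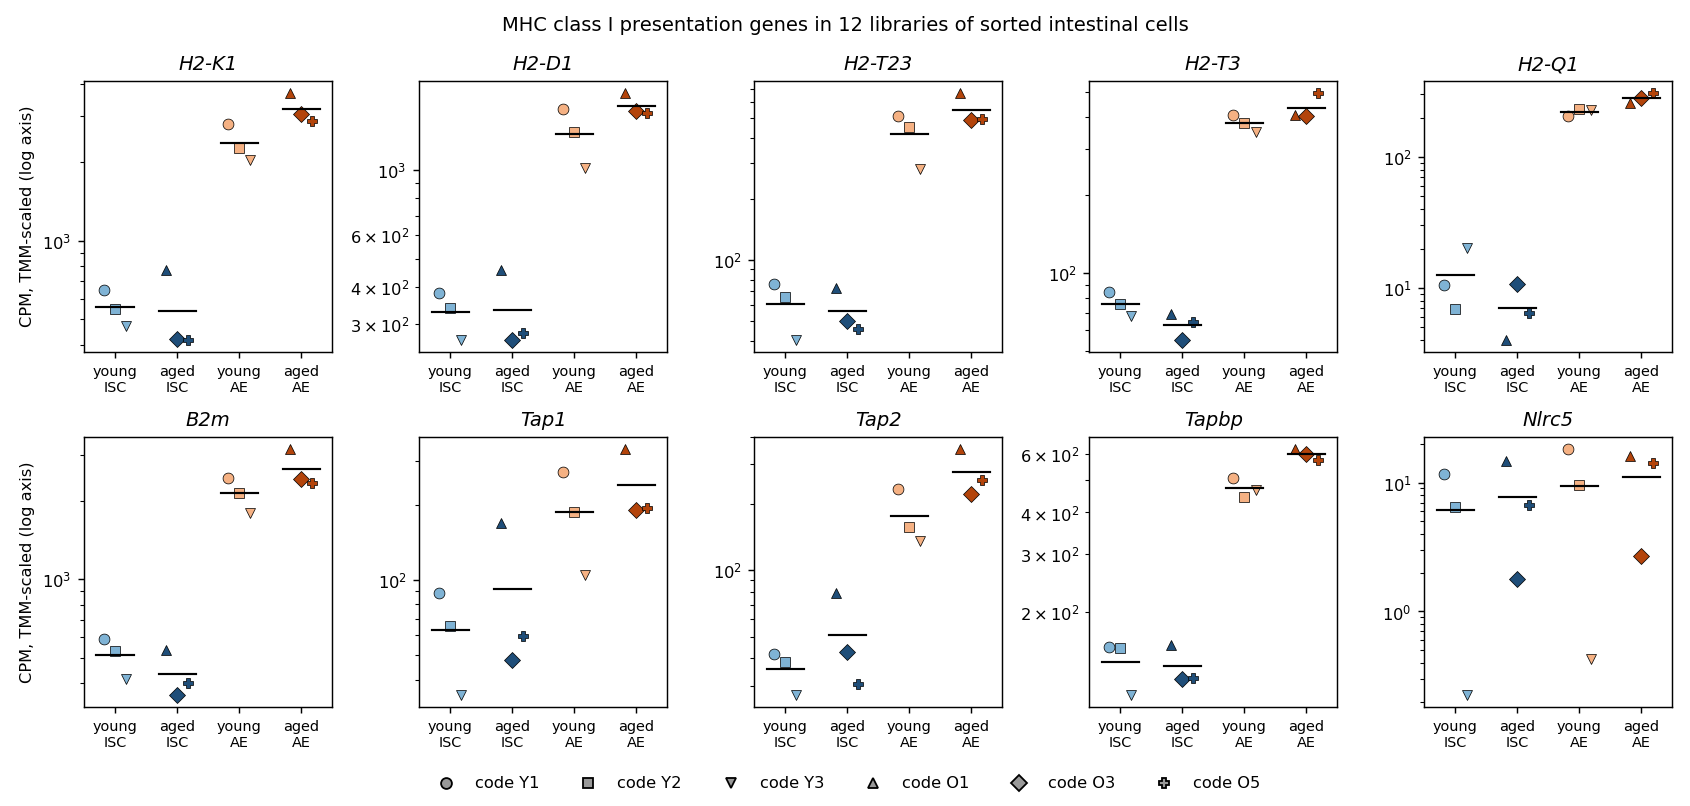
Level of each member in 12 libraries, in CPM after TMM scaling on a log axis, with symbols for the 6 library codes and a line at the mean of the 3 libraries of a group. All AE libraries lie above all ISC libraries except for *Tap1* and *Nlrc5*, and the points of code Y3 are low in both cell types for *Tap1*, *Tap2*, *H2-T23* and *Nlrc5*.

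Of the genes, 8 lie on chromosome 17, between positions 33915899 and 36190287 of GRCm38, the region of the mouse MHC. *B2m* is on chromosome 2, at 122147686 to 122153083, and *Nlrc5* on chromosome 8, at 94434356 to 94527272. Heavy chains are close relatives, and the authors counted uniquely mapped reads only. Of the stretches of 50 bases in their GENCODE transcripts, 15.0% of those of *H2-Q1*, 14.5% of *H2-T23*, 12.8% of *H2-D1*, 9.63% of *H2-K1* and 0.926% of *H2-T3* also occur in a transcript of another gene. The share was 0% for *B2m* and 23.2% for *Tapbp*, with 20.3% shared with *Gm19412*. Whether strand was used in counting is not stated, so reads of a member and of any gene on the other strand that overlaps it cannot be told apart, and levels of the heavy chains may miss the reads that fall in shared stretches.

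RefSeq promoter windows, from 250 bases before to 50 after a gene's start in GRCm38.p6, were found for 7 of the 10 members (1 of 2 windows is shown for *H2-K1*). They are shown for the 4 members whose windows hold both GATTGG and TGACG, and for *H2-T3*, whose window holds none of the patterns searched. Capitals mark 4 sequence patterns searched on both strands: GATTGG, the core of a Y box; TGACG, part of an X box and of cyclic AMP response elements; GGGNNTTCC, of the kind bound by NF-kappa-B; and GAAA, any 2 bases and GAAA again, of the kind bound by interferon regulatory factors. No matches overlapped in these windows.
B2m, chr2:122147437-122147736, plus strand: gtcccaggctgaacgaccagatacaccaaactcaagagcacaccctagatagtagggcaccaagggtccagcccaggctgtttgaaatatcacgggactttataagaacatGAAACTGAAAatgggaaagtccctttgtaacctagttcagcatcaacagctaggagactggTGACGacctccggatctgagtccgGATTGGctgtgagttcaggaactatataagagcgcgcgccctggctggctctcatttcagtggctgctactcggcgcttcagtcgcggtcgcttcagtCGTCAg
H2-K1, chr17:34000298-34000597, minus strand: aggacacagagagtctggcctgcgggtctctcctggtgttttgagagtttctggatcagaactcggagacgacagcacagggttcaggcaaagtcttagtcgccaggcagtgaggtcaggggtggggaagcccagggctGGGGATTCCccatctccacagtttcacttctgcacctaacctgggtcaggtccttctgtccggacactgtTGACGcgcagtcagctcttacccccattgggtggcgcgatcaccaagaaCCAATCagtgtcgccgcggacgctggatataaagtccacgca
H2-D1, chr17:35262844-35263143, plus strand: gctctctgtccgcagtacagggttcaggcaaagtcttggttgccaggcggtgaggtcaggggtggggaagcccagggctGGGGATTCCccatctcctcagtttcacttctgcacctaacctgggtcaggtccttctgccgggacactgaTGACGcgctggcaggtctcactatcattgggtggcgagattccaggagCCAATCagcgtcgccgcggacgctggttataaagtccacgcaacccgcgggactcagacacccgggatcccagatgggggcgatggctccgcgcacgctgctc
Tap1, chr17:34187306-34187605, plus strand: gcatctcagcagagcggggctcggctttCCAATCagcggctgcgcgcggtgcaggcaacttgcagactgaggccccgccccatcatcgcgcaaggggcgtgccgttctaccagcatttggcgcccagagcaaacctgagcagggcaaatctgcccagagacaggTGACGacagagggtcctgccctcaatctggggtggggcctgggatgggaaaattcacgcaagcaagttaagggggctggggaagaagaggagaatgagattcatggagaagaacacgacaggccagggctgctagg
H2-T3, chr17:36190102-36190401, minus strand: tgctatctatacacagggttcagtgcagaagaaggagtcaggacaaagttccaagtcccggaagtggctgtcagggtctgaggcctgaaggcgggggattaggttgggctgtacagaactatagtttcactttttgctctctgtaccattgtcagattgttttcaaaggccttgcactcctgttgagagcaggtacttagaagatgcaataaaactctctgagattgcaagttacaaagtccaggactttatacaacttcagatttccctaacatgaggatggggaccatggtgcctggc

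GATTGG occurred in the windows of 5 of the 7 members, *B2m*, *H2-K1*, *H2-D1*, *H2-T23* and *Tap1*, against 16.1% of 32851 windows of all genes. TGACG was found in 4 members (*B2m*, *H2-K1*, *H2-D1* and *Tap1*) and in 20.8% of all windows. The same 4 windows held both patterns, as did 3.84% of all. GGGNNTTCC occurred in *H2-K1* and *H2-D1* and in 5.82% of windows, and the interferon pattern in *B2m* and *H2-T23* and in 3.44%. The windows of *H2-T3* and *Tapbp* had none of the 4 patterns, a result that says only that these letters are not in them. The *Tap1* window overlaps that of *Psmb9*, the gene of an immunoproteasome subunit on the opposite strand, by 275 bases. A match is a description of the letters and not a binding site.

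The class I genes were far higher in AE than in ISC at both ages. In the comparison of AE with ISC in young mice, 9 of 10 members were higher (edgeR quasi-likelihood, FDR by Benjamini-Hochberg over all genes tested, under 0.05), where 28.9% of all genes were called higher, and the median log2 fold change was 2.08 for the members and 0.15 for all genes. In aged mice 8 of 10 were called, where 30.6% of all genes were, with medians of 2.43 and -0.13. The 3 AE libraries lay above the 3 ISC libraries for 9 of 10 members at each age, against 32.3% of all genes in young and 33.4% in aged mice. In bulk RNA, fewer cells of a type and less RNA per cell cannot be told apart.

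*H2-K1*, the classical heavy chain that leads in level, stood at 646, 549.9 and 471 CPM in the young ISC libraries Y1, Y2 and Y3 and at 2798, 2272 and 2034 CPM in the AE libraries of the same codes. The aged ISC libraries O1, O3 and O5 held 776, 420.4 and 418 CPM and the aged AE libraries 3674, 3059.9 and 2887. No AE value came near an ISC value. The difference of AE from ISC was 2.09 ± 0.25 (SE) on the log2 scale in young mice (FDR = 0.000313) and 2.50 ± 0.31 (SE) in aged mice (FDR = 4.60e-05), or 4.26- and 5.67-fold.

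The other classical chain, *H2-D1*, was lower than *H2-K1* per kb in every library and differed by about as much, from 382, 342 and 266 CPM in young ISC to 1607, 1342 and 1009.9 in young AE (log2 2.00 ± 0.26 (SE), FDR = 0.000415). In aged mice it went from 457, 266 and 279 to 1814, 1578 and 1556 CPM (log2 2.23 ± 0.26 (SE), FDR = 3.00e-05). Their light chain *B2m* was higher too: 590.3, 531 and 415 CPM in young ISC stood against 2463, 2152 and 1808 in young AE, and 537, 359 and 400.5 in aged ISC against 3177, 2425 and 2348 in aged AE. These are differences of 2.06 ± 0.25 (SE) and 2.54 ± 0.26 (SE) on the log2 scale (FDR = 0.000324 and 1.25e-05). The level of *B2m* per kb was 1.4 to 1.93 times the sum of *H2-K1* and *H2-D1* in ISC and 1.71 to 1.94 times in AE.

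Among the members, the nonclassical chains had larger fold changes than the classical ones at each age, a difference between genes that was not tested. This does not extend to the other heavy chains, whose median log2 fold changes were 1.36 in young and 1.43 in aged mice. *H2-T23* went from 76.2, 65.8 and 40.5 CPM in young ISC to 516, 453 and 280.5 in young AE, a log2 difference of 2.78 ± 0.31 (SE) (FDR = 0.00027). In aged mice its values were 72.9, 50.1 and 45.5 CPM in ISC and 665, 489.7 and 496 in AE, a difference of 3.22 ± 0.24 (SE) (FDR = 1.33e-06). *H2-T3*, the thymus leukemia antigen gene, had the smallest range of the heavy chains over the 6 libraries of a cell type, 1.52-fold in ISC and 1.41-fold in AE. It had 84.2, 75.5 and 68.3 CPM in young ISC and 407, 377 and 349 in young AE, against 69.2, 55.3 and 64.5 in aged ISC and 406, 401 and 492 in aged AE, with log2 differences of 2.31 ± 0.17 (SE) (FDR = 7.05e-05) and 2.71 ± 0.18 (SE) (FDR = 6.24e-07).

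*H2-Q1* had the largest difference of the members. Its level was 10.5, 6.93 and 20.3 CPM in young ISC and 207, 232 and 227 CPM in young AE (log2 4.14 ± 0.39 (SE), FDR = 0.000186), which is 17.6-fold. In aged mice it was 4.04, 10.8 and 6.44 CPM in ISC and 258, 284 and 306 in AE (log2 5.26 ± 0.34 (SE), FDR = 7.94e-07), or 38.4-fold. The AE libraries were close to each other, whereas the ISC libraries spread 5.03-fold. Over the 6 ISC libraries the order of *H2-Q1* (O1, O5, Y2, Y1, O3, Y3, from low to high) was that of the summed enterocyte genes, which was the case for none of the other 9 members. As a share of the AE library of the same code, *H2-Q1* in ISC was 5.05%, 2.98% and 8.95% for Y1, Y2 and Y3 and 1.56%, 3.80% and 2.1% for O1, O3 and O5. The corresponding shares of the enterocyte sum were 5.54%, 4.55% and 10.3%, and 1.70%, 4.48% and 2.22%. For *H2-K1* they were between 13.7% and 24.2%. The part of enterocyte transcripts in the ISC level of *H2-Q1* was not tested.

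The transporter subunits had fold changes of different size, a difference that was not tested. *Tap2* stood at 41.8, 38.6 and 27.3 CPM in young ISC and at 233, 157 and 135 in young AE (log2 2.28 ± 0.26 (SE), FDR = 0.000255). Aged ISC had 79.2, 42.8 and 30.6 and aged AE 353, 221 and 256 CPM of it (log2 2.36 ± 0.34 (SE), FDR = 0.000216). *Tap1* differed by less, with 89.0, 65.4 and 34.6 CPM in young ISC and 270.3, 186 and 105 in young AE (log2 1.57 ± 0.44 (SE), FDR = 0.0195). The call was lost when the young ISC library Y2 or the young AE library Y1 or Y2 was left out, with FDR values from 0.053 to 0.061. In aged mice *Tap1* was at 169, 47.7 and 59.9 CPM in ISC and 335, 192 and 194 in AE. There the lowest AE library exceeded the highest ISC library by little, and the difference of 1.30 ± 0.50 (SE) was not called (FDR = 0.0539). It was called when the library code was kept as a replicate block (log2 1.48 ± 0.19, FDR = 0.00011), under DESeq2 (FDR = 0.00194) and without the aged ISC library O1 (log2 2.08, FDR = 0.000172).

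*Tapbp* showed tight groups. Young ISC had 158, 156 and 113 CPM and young AE 507, 446 and 467, a log2 difference of 1.74 ± 0.19 (SE) (FDR = 0.000239). Aged ISC had 160.0, 126 and 127 CPM and aged AE 622, 601 and 577, a difference of 2.05 ± 0.18 (SE) (FDR = 3.99e-06).

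For *Nlrc5* no difference between the cell types passed the test. Its levels were 11.7, 6.47 and 0.225 CPM in young ISC and 18.3, 9.51 and 0.431 in young AE (log2 0.56 ± 1.41 (SE), FDR = 0.754, 95% interval -2.86 to 3.97). Aged ISC had 14.8, 1.78 and 6.71 and aged AE 16.2, 2.69 and 14.1 CPM (log2 0.38 ± 0.87 (SE), FDR = 0.722, 95% interval -1.76 to 2.52). The spread between codes was far above that of the other members, 65.7-fold in ISC and 42.4-fold in AE. The Y3 libraries held few counts of it, 4 in ISC, close to the floor of 3 counts (exact Poisson interval 0.0612 to 0.575 CPM) and 36 in AE (0.302 to 0.596 CPM), and these intervals cover counting error only.

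**Figure D2:**
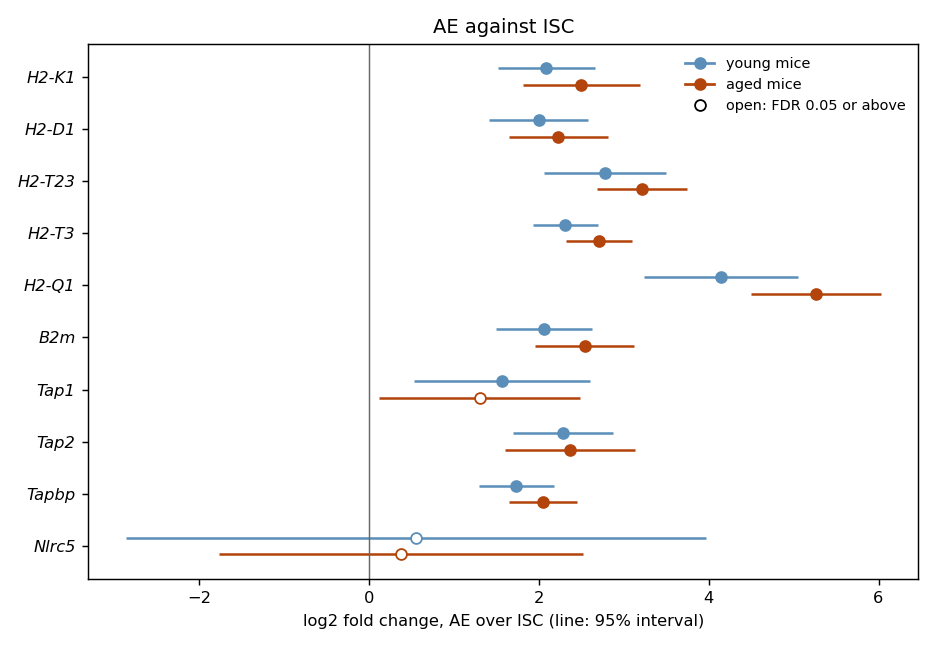
Log2 fold change of AE over ISC for each member, in young and in aged mice, with 95% intervals from the fit over all genes. Filled points passed an FDR of 0.05: all but *Nlrc5* in young mice, and all but *Nlrc5* and *Tap1* in aged mice.

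Markers of immune cells were low beside the members. In AE, those of goblet cells summed to 19231 to 35981 CPM and those of enteroendocrine cells to 2889 to 10539. Genes of T cells and intraepithelial lymphocytes, 11 in the list, summed to 1.55 to 11.5 CPM in ISC and 9.46 to 28.4 in AE, where the 10 members summed to 1380.4 to 2339 and 6416 to 11319 CPM. Those of monocytes, macrophages and dendritic cells summed to 14.5 to 37.8 CPM in ISC and 16.9 to 28.5 in AE, and those of B and plasma cells stayed at or under 2.33 CPM. In aged mice 7 of 8 lymphocyte genes tested were called higher in AE, where 30.6% of all genes were. In young mice 1 of 9 was called higher and 1 lower, where 28.9% and 26.7% of all genes were. Of the list's defining genes, *Trac* and *Nkg7* had 0 counts in all 3 aged ISC libraries, so AE counts alone let them be tested. *Cd3g*, *Cd3e*, *Cd8a* and *Trdc* had at most 7, 3, 2 and 1 counts in an aged ISC library. They too reached the filter of 10 counts only through AE, so the filter largely fixed their direction. *Cd3e* averaged 0.98 CPM in aged AE. *Cd8b1*, too low to be tested in aged mice, had 0 counts in AE and up to 6 in ISC. The stem cell, Paneth, goblet and enteroendocrine lists also moved with cell type, and their part in the differences of the class I genes was not tested.

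Compared within a code, AE exceeded ISC in 6 of 6 codes for all 10 members, as it did for 38.7% of the 12642 genes with a mean of at least 1 CPM. This includes *Nlrc5*, whose difference passed no test. For *H2-T23* the AE to ISC ratio was 6.78, 6.89 and 6.93 for Y1, Y2 and Y3 and 9.12, 9.78 and 10.9 for O1, O3 and O5, while its level ranged over 1.88-fold between codes in ISC and 2.37-fold in AE. Code Y3 had its lowest level in both cell types and a ratio within the range of the other codes. For *H2-K1* the ratios were 4.33, 4.13 and 4.32 in the young codes and 4.73, 7.28 and 6.90 in the aged, for *H2-T3* 4.84, 4.99 and 5.11 and 5.87, 7.26 and 7.63, and for *B2m* 4.17, 4.05 and 4.36 and 5.91, 6.76 and 5.86. In these 4 genes the 3 aged ratios all lay above the 3 young ratios, as they did for 5.89% of the same genes, a pattern noticed in the values and given with no test. For *Nlrc5* the ratio ran from 1.10 to 2.1, and with the replicate block its difference was 0.63 ± 0.26 (FDR = 0.0679) in young and 0.50 ± 0.24 (FDR = 0.0903) in aged mice.

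Other heavy chains of the MHC went the same way as the members where they were called. Of 17 listed, 10 could be tested, and 5 were higher in AE in young mice and 6 in aged mice, where 28.9% and 30.6% of all genes were. None was lower, and the median log2 fold changes were 1.36 and 1.43. *H2-Q2* had the lowest FDR of these, at 94.1 ± 29.6 CPM (mean ± SD) in young ISC and 1047 ± 175 in young AE (log2 3.47 ± 0.28 (SE), FDR = 9.14e-05), and it shares 12.9% of its 50-base stretches with *H2-Q1*. *H2-T24*, at 0.370 ± 0.0443 and 3.27 ± 0.865 CPM, differed by 3.13 ± 0.43 (SE) (FDR = 0.00054). Its young ISC level rests on 5 to 7 counts a library, so the size of this fold change is uncertain. *H2-T22*, of whose stretches 53.5% recur in other genes, differed by 1.67 ± 0.24 (SE) (FDR = 0.00074), and *H2-Q4* by 1.06 ± 0.26 (SE) (FDR = 0.00939).

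The rest of the pathway had smaller median differences between the cell types. Of 7 genes for loading and trimming, 1 was called higher in AE at each age and none lower. Of all genes, 28.9% were called higher in young and 30.6% in aged mice. The gene called was *Tapbpl*, a relative of tapasin that edits peptides, at 0.75 ± 0.20 (SE) in young and 0.84 ± 0.19 (SE) in aged mice (FDR = 0.0129 and 0.00243). The chaperone *Calr* had 0.43 (FDR = 0.155) and 0.42 (FDR = 0.0693), and the medians of the list were 0.22 and 0.03. Of the 5 immunoproteasome genes 1 was called higher in young and 2 in aged mice, where 28.9% and 30.6% of all genes were. *Psme2*, a subunit of the activator that interferon induces, differed by 0.80 ± 0.20 (SE) and 0.75 ± 0.24 (SE) (FDR = 0.00932 and 0.0178), and the catalytic subunit gene *Psmb10* by 0.64 ± 0.25 (SE) in aged mice (FDR = 0.0454). *Psmb9*, whose promoter window overlaps that of *Tap1*, had 0.65 ± 0.44 (SE) (FDR = 0.243) and 0.22 ± 0.45 (SE) (FDR = 0.69).

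The 4 standard proteasome counterparts went the other way, with 3 lower in AE at each age and none higher, where 26.7% of all genes were called lower in young and 34.2% in aged mice. The activator subunit *Psme3* fell by 0.85 in young and 0.87 in aged mice on the log2 scale (FDR = 0.00182 and 0.000433), and *Psmb7* fell by 0.73 and 1.00 (FDR = 0.0167 and 0.000768). *Psmb5* had -0.71 ± 0.17 (SE) and -0.73 ± 0.19 (SE) (FDR = 0.00741 and 0.00635).

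Among 21 genes that regulate class I, 10 were higher in AE at each age, where 28.9% of all genes were in young and 30.6% in aged mice. In young mice 4 were lower and in aged mice 5, so that the shares called lower were under those of all genes given above. The list holds mainly interferon signalling genes by its choice, and the genes of lowest FDR follow. The kinase gene *Jak2* was at 43.5 ± 6.98 CPM in young ISC and 193 ± 32.0 in young AE (log2 2.15 ± 0.19 (SE), FDR = 0.000122) and differed by 2.51 ± 0.19 (SE) in aged mice (FDR = 1.51e-06). *Stat2*, which carries the signal of type I interferon, differed by 2.38 ± 0.40 (SE) and 2.28 ± 0.21 (SE) (FDR = 0.00205 and 5.81e-06). The interferon gamma receptor subunit *Ifngr2* differed by 1.61 ± 0.25 (SE) in young mice and 1.63 ± 0.17 (SE) in aged mice (FDR = 0.000876 and 1.55e-05). *Ifnar2*, a receptor subunit for type I interferon, had 1.80 ± 0.27 (SE) in young mice (FDR = 0.000786), and *Rfxank*, a component of the complex on the X box, 1.44 ± 0.17 (SE) in aged mice (FDR = 3.20e-05).

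**Figure D3:**
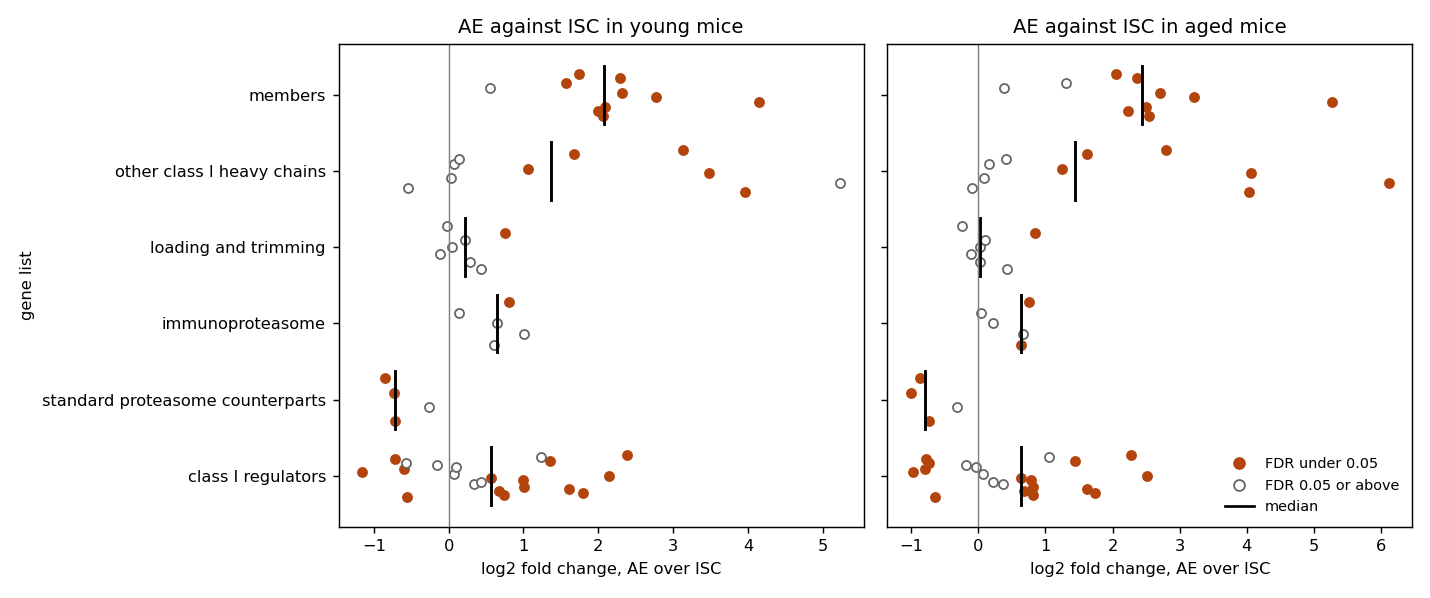
Log2 fold change of AE over ISC for the members and 5 lists of related genes, in young and aged mice, with a point per gene and a line at the median of the list. The medians of the members (2.08 and 2.43) and of the other heavy chains (1.36 and 1.43) lie to the right of those of the other lists, and all 4 standard proteasome counterparts lie below 0.

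Libraries of the same code moved together in several class I genes. Code Y3 was the lowest of 6 in both cell types for 5 of 10 members, *H2-D1*, *H2-T23*, *Tap1*, *Tap2* and *Nlrc5*, as it was for 2.46% of the 12642 genes with a mean of at least 1 CPM. Code O1 was the highest in both cell types for 5 members, *H2-K1*, *H2-D1*, *Tap1*, *Tap2* and *Tapbp*, against 3.01% of those genes. *H2-D1*, *Tap1* and *Tap2* did both, as did 0.182% of all genes. This pattern was noticed in the values and is given with no test. What a code stands for is not stated.

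*Nlrc5* kept nearly the same order of codes in both cell types: Y3, O3, Y2 and O5 from low to high, then Y1 and O1 in ISC and O1 and Y1 in AE. *Tap1* ranged over 4.89-fold in ISC and 3.20-fold in AE, and *Tap2* over 2.90- and 2.61-fold. *H2-T3* and *Tapbp* ranged over no more than 1.52-fold in either. *H2-Q1* went against the rest, since its ISC level was highest in Y3 and lowest in O1.

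**Figure D4:**
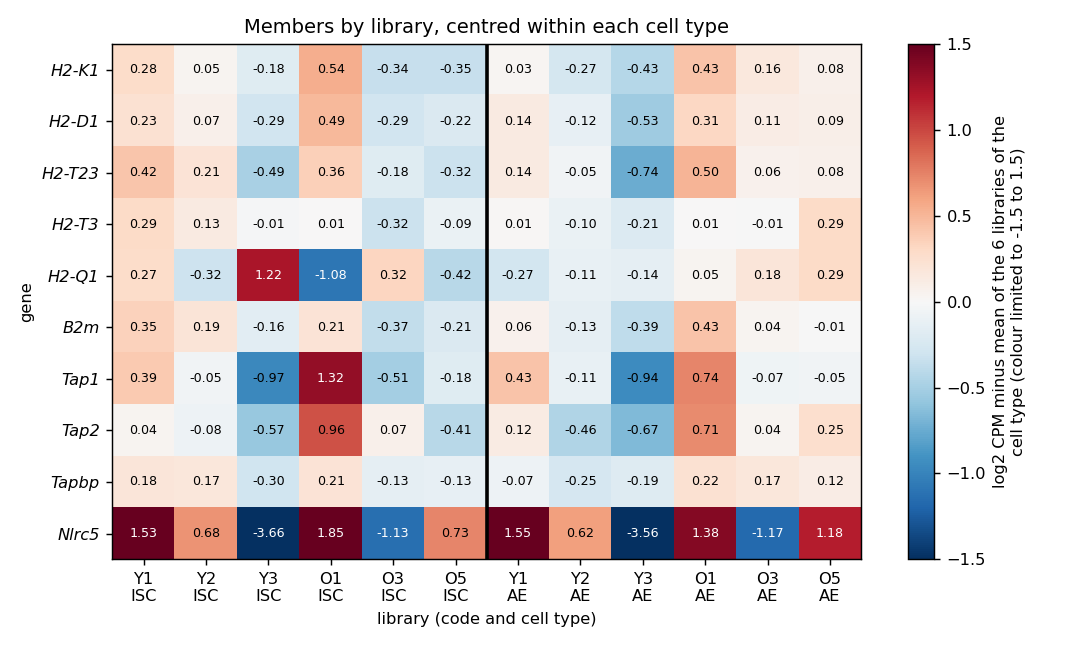
Log2 CPM of each member minus its mean over the 6 libraries of the cell type, for ISC on the left and AE on the right, with colours limited to -1.5 to 1.5. Code Y3 is blue for 9 members in ISC and 10 in AE, and O1 is red for 9 in ISC and 10 in AE, while *H2-Q1* in ISC has the reverse signs.

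The genes most like the members were sought among 9385 others with a mean of at least 10 CPM, by the root mean square difference of centred log2 CPM from the mean of the members over 12 libraries. They were *Oasl2* (0.29), *Rtp4* (0.29), *Stat2* (0.31), *Batf2* (0.31) and *Gcnt3* (0.32). Of the members themselves, *H2-D1* (0.18), *H2-K1* (0.19) and *B2m* (0.20) were closest to that mean, and *H2-Q1* (1.45) and *Nlrc5* (1.76) farthest.

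No class I gene passed the threshold for age in either cell type. In ISC, 0 of 10 members were called by edgeR, as was 0% of all genes, and 0 had an unadjusted P under 0.05, where 5.04% of all genes did. DESeq2 called 0 members and 59 genes in all. The log2 fold changes of aged over young lay between -0.85 and 0.56, with 4 above and 6 below 0 and a median of -0.04, where the median of all genes was 0.01. Intervals were wide: -0.61 to 0.53 for *H2-K1*, -0.50 to 0.55 for *H2-D1*, -0.69 to 0.22 for *B2m* and -0.81 to 1.93 for *Tap1* (95%). For *H2-Q1*, with -0.85 ± 0.46 (SE), the interval was -1.90 to 0.21, and the 10 enterocyte genes were all below 0 in this comparison, with a median of -0.99 and none called. The 9 lymphocyte genes tested were also all below 0, with a median of -3.08 and none called, and the 11 in the list summed to 5.05 to 11.5 CPM in young and 1.55 to 3.40 CPM in aged ISC. *Trac* and *Nkg7* had 0 counts in every aged ISC library and at most 12 and 11 in a young one, so young counts alone let them be tested. *Cd3g*, *Cd3e*, *Cd8a*, *Cd3d* and *Trdc* had at most 7, 3, 2, 1 and 1 counts in an aged ISC library. They too missed the filter of 10 counts without the young libraries, so the filter largely fixed their direction. *Cd8b1*, too low to be tested, averaged 0.021 CPM in young and 0.074 in aged ISC. The part of both lists in the class I values was not tested. *Tap1* had 0.56 with all libraries and -0.22 without the aged ISC library O1, and leaving out that library took the median over members from -0.04 to -0.33.

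In AE, all 10 members were higher in the aged libraries on average, as were 45.3% of all genes, and none was called (0% of all genes by edgeR; DESeq2 called 0 members and 17 genes in all). The log2 fold changes ran from 0.22 for *H2-T3* to 0.68 for *Tap2*, with a median of 0.36 against -0.04 for all genes. *H2-K1*, *H2-Q1*, *Tap2* and *Tapbp* had an unadjusted P under 0.05, where 4.79% of all genes did. The aged libraries lay above the young for *H2-K1*, *H2-Q1* and *Tapbp*, and for 4.01% of all genes.

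Of these, *Tapbp* went from 507, 446 and 467 CPM in young AE to 622, 601 and 577 in aged AE, a log2 fold change of 0.36 ± 0.14 (SE) (95% interval 0.04 to 0.68, FDR = 0.844). *Tap2* had 0.68 ± 0.24 (SE) (95% interval 0.14 to 1.23, FDR = 0.844), with the young library Y1 at 233 CPM above the aged O3 at 221. *H2-K1* had 0.46 ± 0.20 (SE) (FDR = 0.844) and *H2-Q1* 0.36 ± 0.14 (SE) (FDR = 0.844). Leaving out the young AE library Y3 took the median over members from 0.36 to 0.21, and leaving out Y1 took it to 0.55, and *Nlrc5* fell below 0 (-0.32) without Y3. In the same comparison the 10 enterocyte genes were all above 0 with a median of 0.29, and 8 of 9 stem cell genes were below 0 with a median of -0.99. Of the lymphocyte genes 8 of 9 were above 0, with a median of 0.60, and their list summed to 9.46 to 28.4 CPM in young and 14.5 to 23.7 CPM in aged AE. All 6 Paneth cell genes were below 0, with a median of -1.17. Both the stem cell and the Paneth sums were highest in the young library Y2. The stem cell list summed to 226, 643 and 96.9 CPM in Y1, Y2 and Y3 and to 111, 188 and 171 in O1, O3 and O5. The Paneth list summed to 75.6, 227 and 52.1 CPM in the young and to 52.0, 91.6 and 58.7 in the aged libraries. None of the genes of these lists was called, and the part of these lists in the class I values was not tested.

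Of the related lists, none had a gene called by age in either cell type. In AE, 9 of 10 other heavy chains were above 0, with a median of 0.57. *H2-Q7*, which shares 26.5% of its 50-base stretches with other genes, had 0.98 ± 0.24 (SE) (FDR = 0.844), and *H2-Q4* had 0.77 ± 0.22 (SE) (FDR = 0.844). The 5 immunoproteasome genes were above 0 in both cell types, with medians of 0.12 in ISC and 0.15 in AE, while the loading and trimming genes had medians of -0.20 and -0.23.

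The age effect was not shown to differ between the cell types. Of the members, 0 of 10 were called in the test of the difference, as was 0.00575% of all genes, and *H2-T3* and *H2-Q1* had an unadjusted P under 0.05, where 3.88% of all genes did. The difference of the age effect in AE from that in ISC was 0.47 ± 0.22 (SE) for *H2-T3* (FDR = 1), 1.19 ± 0.51 (SE) for *H2-Q1* and 0.55 ± 0.32 (SE) for *B2m*, with a median over members of 0.43. With the replicate block the test called 19 genes in all, where 1 was called without it, and 0 members, the lowest FDR among them being 0.65 for *H2-T23*. DESeq2 called 43 genes and 0 members.

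**Figure D5:**
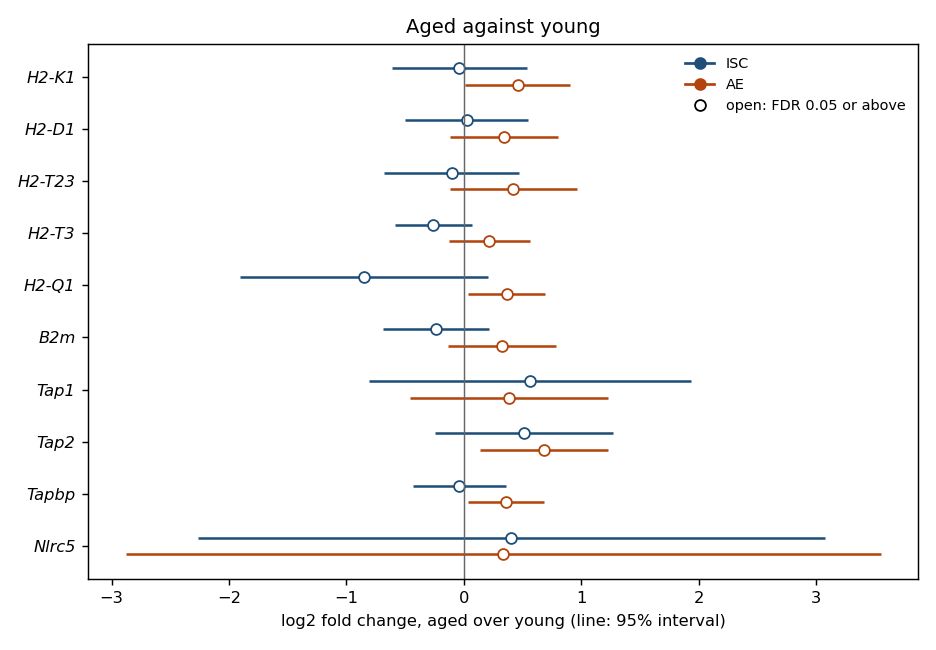
Log2 fold change of aged over young libraries for each member, in ISC and in AE, with 95% intervals. All points are open since none passed an FDR of 0.05. The AE points lie above 0 for all 10 members and the ISC points on both sides of it, and the intervals of *Nlrc5* are the widest.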

How the data were processed

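The 12 libraries hold poly(A) RNA of sorted cells and were made with a directional kit, 3 per group. The deposited values are raw counts per gene: the authors trimmed reads with Trim Galore 0.4.4, mapped them to GRCm38 with HISAT2 2.1.0, kept uniquely mapped reads and counted them over merged exons in SeqMonk. The annotation release and use of strand in counting are not given in the sources used here. A table of the authors' own differential genes (DESeq2, log2 values) was not used.

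Counts were tested in R 4.3.3 with edgeR 4.0.16 (TMM, quasi-likelihood test with robust estimation, Benjamini-Hochberg, FDR threshold 0.05) for genes with at least 10 counts in total over the libraries of a comparison. DESeq2 1.42.0 was an alternative. Displayed CPM use TMM factors over 12 libraries, log2 CPM adds 0.1, and exon lengths come from GENCODE M21. The test was checked on simulated data with changes larger than any age difference of the members, so its power for those is not shown. Members and lists were chosen with earlier results of these data known. Genes beyond the members were named by a fixed rule: at most 4 a list by lowest FDR, and the 5 most alike. Deviations from group means correlated in 6 of 6 pairs of one code (correlations over genes 0.23 to 0.45, against -0.42 to 0.15 in 12 pairs of different codes), so an alternative fit took the code as its replicate block. The pairing rests on this check, since no label ties codes to mice. Replicates 1, 2 and 3 of aged groups are codes O1, O3 and O5. Groups of 3 against 3 libraries give an exact permutation p of 0.1 at best, so single values were not tested that way. The other alternatives were RLE and upper-quartile scaling, no filter, filterByExpr, all 4 groups in 1 fit and leaving out each library. Leaving out both Y3 libraries and the earlier edgeR method were chosen after seeing the data.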

Additional observations from a re-analysis of the deposited data

How the results depend on the processing

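Of 390 values of members under alternatives other than leaving out a library, 385 kept their direction and their side of the threshold and none reversed. The other 5 are all *Tap1* in AE against ISC of aged mice, now called: 1.39 under DESeq2, 1.39 with RLE scaling, 1.34 with filterByExpr, 1.38 with all 4 groups in 1 fit and 1.48 with the replicate block. The replicate block changed no other call of a member, and took the genes called for the difference of age effects from 1 to 19. Of 360 values with a library left out, 325 were alike. Over these, log2 fold changes that changed sign ranged in ISC by age over -0.40 to 0.12 for *H2-K1*, -0.27 to 0.16 for *H2-D1*, -0.34 to 0.085 for *H2-T23*, -0.22 to 0.89 for *Tap1*, -0.18 to 0.039 for *Tapbp* and -0.49 to 1.26 for *Nlrc5*. For *Nlrc5* they ranged over -0.32 to 1.4 in AE by age, -0.46 to 1.43 and -0.063 to 1.27 in AE against ISC of young and aged mice, and -0.94 to 0.89 in the difference, where *Tap1* gave -0.54 to 0.59 and *Tap2* -0.11 to 0.63. *Tap1* in young mice gave 1.18 to 1.90 and lost its call 3 times. Counts over all genes, 0 in each age comparison and 1 for the difference, became 59, 17 and 43 under DESeq2. They became 1 in ISC with no filter, 3 in ISC and 2 in AE with all 4 groups in 1 fit, and 0 for the difference without both Y3 libraries. With 1 library left out they were 0 to 1, 0 to 1 and 0 to 3. The cause was not tested. The Y3 values of *Nlrc5* rest on 4 and 36 counts, and 3 libraries a group leave wide intervals for age.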

Other observations

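Of 6 listed genes with a class I-like fold, 3 could be tested in AE against ISC of young mice, with 1 higher and 1 lower, and 4 in aged mice, with 1 higher and 2 lower. *Mr1* had 0 counts in every AE library and 1 to 8 in an aged ISC one. ISC counts alone let it be tested in aged mice, so the filter fixed its direction. Over all genes, 28.9% were called higher and 26.7% lower in young mice, and 30.6% and 34.2% in aged mice. *Fcgrt*, the receptor that recycles IgG, was at 39.7 ± 17.2 CPM (mean ± SD, n = 3) in young ISC and 136 ± 35.6 in young AE, and was called higher in AE at each age (log2 1.77 and 1.75, FDR = 0.00247 and 0.000132). *Cd1d1*, which presents lipids, was called lower in AE (log2 -3.50 and -3.71, FDR = 0.00188 and 8.99e-05), from levels of 2.68 ± 1.18 and 2.96 ± 0.919 CPM in young and aged ISC. Its AE levels were near the floor, at 0.241 CPM in young (0 to 19 counts) and 0.230 CPM in aged mice (1 to 3 counts). The size of the fold change is therefore uncertain.

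The class II genes were looked at after the low values of code Y3 were seen. *Ciita*, the class II counterpart of *Nlrc5*, was at 2.36 CPM in the ISC library Y3, where the other 5 ISC libraries had 9.28 to 44.2, and at 4.49 CPM in the AE library Y3, where the others had 69.2 to 89.2. *H2-Aa* was at 2.25 CPM against 80.4 to 397 in ISC, and at 24.9 CPM against 1281 to 1992 in AE.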
